A study of Mus musculus with 10 samples.

Results

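Molecular chaperones other than the main endoplasmic reticulum ones were compared between dendritic cells treated with a leaf extract and cells given its solvent. The genes were chosen by symbol (Cct, Hsp and Dnaj genes, without Hspa5, Hsp90b1, Dnajb9 and pseudogenes) and by a total of at least 60 reads over the 6 RNA libraries. That rule took 68 of 24385 gene symbols in the count table, and 80 symbols matched before the read minimum. All 68 passed the filter on low counts, and 40 of them are J-domain (Dnaj) genes. Just inside the minimum lay Dnajb3 with 73 reads and Hspa12a with 75, and just outside lay Hspa12b with 56 and Cct6b with 35. Dnajc5b, Dnajc5g and Hspb3 had 0 reads, and Hspb1, the best known small heat shock protein gene, had 9.

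The cells were grown from bone marrow of wild-type female C57BL/6 mice, 8 to 10 weeks old, over 7 days with 20 ng/mL of the growth factor GM-CSF. Non-adherent immature cells collected on day 6 received AMLE, an apple mango leaf extract, at 400 µg/mL, or DMSO at 0.04%, for 24 h. Libraries are named by group and replicate number (AMLE 1, DMSO 2). RNA was sequenced in 3 AMLE and 3 DMSO libraries and open chromatin (ATAC-seq, in which a transposase cuts accessible DNA) in 2 and 2. The labels do not say whether replicates are separate mice or cultures, and the p-values therefore rest on the spread between these libraries, which may be technical.

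Chaperones bind unfolded proteins and help them reach or regain their shape, and some classes use ATP to do so. HSP70 proteins hold short stretches of client proteins, J-domain proteins bring the clients and trigger ATP hydrolysis, and nucleotide exchange factors reset the cycle. HSP90 takes clients such as kinases and steroid receptors with the help of many co-chaperones. The chaperonin CCT in the cytosol folds actin and tubulin inside a ring, and HSP60 with its lid HSP10 does the like in mitochondria. Under protein-damaging stress the factor HSF1 binds heat shock elements, repeats of GAA in alternating orientation, and switches on the inducible members.

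RNA libraries held 26010455 to 34208286 reads. On the leading principal component, which carried 76.6% of the variance, AMLE libraries scored −38.3, −46.5 and −23, and DMSO libraries 34.7, 31.1 and 42, so AMLE 3 lay nearest to the DMSO group. Levels are in CPM, the reads of a gene per 1000000 reads of the library after scaling. The dendritic cell gene Itgax averaged 688 ± 78.6 CPM in AMLE and 708 ± 101 in DMSO (SD, n = 3 each), and of 7 dendritic cell markers 4 were higher and 1 lower (summed level 6291 to 7075 CPM against 5353 to 8001). Of all 13075 tested genes, edgeR called 23% higher and 25.6% lower in AMLE. The dendritic cell sum leans on Cd74, not called, at a mean of 3205 CPM in AMLE and 3931 in DMSO. That of granulocyte precursor genes, given next, leans on S100a8, also not called, at 3309 and 4779. Markers of other cells moved too. Proliferation genes fell in 22 of 22 members (summed level 809 to 990 CPM in AMLE, against 2723 to 3074 in DMSO), granulocyte precursor genes in 5 of 6 (3722 to 4936 against 6229 to 9688) and macrophage genes in 4 of 6, with 1 higher (188 to 203 against 316 to 514). Mast cell and basophil genes rose in 3 of 5 members (193 to 356 CPM against 117 to 179). Lymphocyte genes summed to 18.6 to 27.7 CPM against 17.9 to 26.7, with none of 4 tested called in either direction by edgeR. Erythroid genes summed to 0.459 to 0.729 CPM against 0.254 to 0.586, and Hba-a1 was at 0 in all 6 libraries. Stromal genes summed to 0.621 to 0.688 CPM against 0.948 to 1.03, with the 1 tested gene of 4 lower. The part of these shifts in the chaperone results was not tested, and in bulk RNA fewer cells of a type and less RNA per cell cannot be told apart.

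Promoters of some genes with contrasts reported further on are shown here, and their part in these contrasts was not tested. They were taken from RefSeq windows of GRCm38.p6 (250 bases before to 50 after a gene start), which exist for 55 of the 68 genes. Hspd1 (HSP60) and Hspe1 (HSP10) are read in opposite directions from starts 215 bases apart. The whole stretch between those starts is printed because 1 of the genes fell and the other did not. It runs from chr1:55087933-55088147, plus strand, and ends at the Hspe1 start. Capitals mark a run of 4 alternating heat shock units, 89 to 72 bases before Hspe1.
Hspd1 and Hspe1 shared region: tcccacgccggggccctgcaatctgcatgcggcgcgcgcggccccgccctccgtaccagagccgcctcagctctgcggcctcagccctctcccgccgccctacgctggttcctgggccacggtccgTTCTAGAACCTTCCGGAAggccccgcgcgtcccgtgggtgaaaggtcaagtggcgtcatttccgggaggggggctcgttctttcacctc
Besides this pair, only Dnajb6 and Hsph1 held the 3-unit element among the members with a window. Dnajb6 is shown at chr5:29735798-29735897, plus strand, the last 100 bases before the outer of its 2 starts. Hsph1 has 2 window starts, both inside its annotated span, and the 30 bases shown, chr5:149636287-149636316, minus strand, lie just after the outer of these. Capitals again mark the element.
Dnajb6: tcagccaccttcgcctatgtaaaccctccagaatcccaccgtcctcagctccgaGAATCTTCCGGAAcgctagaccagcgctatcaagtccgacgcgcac
Hsph1: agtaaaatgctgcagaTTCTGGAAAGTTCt
Hspa1a and Hspa1b, the classical heat-inducible HSP70 pair, are printed because their upstream sequences are nearly the same (247 of 250 bases identical, 98.8%). The stretches lie at chr17:34972177-34972276 and chr17:34959259-34959358, both on the minus strand. Capitals mark a 2-unit element and a CCAAT box on the other strand.
Hspa1a: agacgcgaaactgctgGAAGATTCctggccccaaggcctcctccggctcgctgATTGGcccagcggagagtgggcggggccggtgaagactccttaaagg
Hspa1b: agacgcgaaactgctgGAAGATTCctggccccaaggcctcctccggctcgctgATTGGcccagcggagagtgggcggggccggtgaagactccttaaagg
Dnajc9 had the largest fall of all members and Dnajc1 one of the largest rises. Dnajc9 is shown by 30 bases just after its start, chr14:20388861-20388890, minus strand, with an E2F element in capitals (E2F factors act on cell cycle genes). Dnajc1 is shown at chr2:18392881-18392980, minus strand, upstream of a start that lies inside its annotated span, with the E-box CACGTG in capitals.
Dnajc9: ggcgcccagagttatttggGCGGGAAAagg
Dnajc1: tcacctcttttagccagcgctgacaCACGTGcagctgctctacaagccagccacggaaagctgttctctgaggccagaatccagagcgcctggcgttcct

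More chaperone genes were lower than higher after AMLE. By edgeR's quasi-likelihood test at an adjusted p below 0.05, 25 of 68 members (36.8%) were lower, and 13 (19.1%) were higher. Of all 13075 tested genes 48.6% were called in either direction, 25.6% lower and 23% higher. The median log2 fold change over the members was −0.14, beside −0.01 over all tested genes. The groups did not overlap for 30 members lower in AMLE (31.4% of all tested genes) and 14 higher in AMLE (28.4%). The summed level of the 68 genes was 7599 to 8349 CPM in AMLE and 9318 to 9738 in DMSO. That sum leans on Hspa8, at a mean of 1643 CPM in AMLE and 2219 in DMSO, and on Hsp90ab1, not called, at 1799 and 2024. Changes were small: Dnajc9 alone was called with a change of at least 2-fold (4.4% of tested genes were lower by that much, and 5.52% higher). The count of higher members depended on single libraries. It was 6 without DMSO 1 or DMSO 2, 8 without DMSO 3 or AMLE 2, and 7 without AMLE 1, whereas the lower count stayed between 19 and 27. In the fits that reduced the higher count, fewer of all tested genes were called too, in both directions. The loss of higher calls was therefore not confined to the members, though it was a smaller share of the calls over all tested genes. How much of it is particular to the members was not tested.

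**Figure D1:**
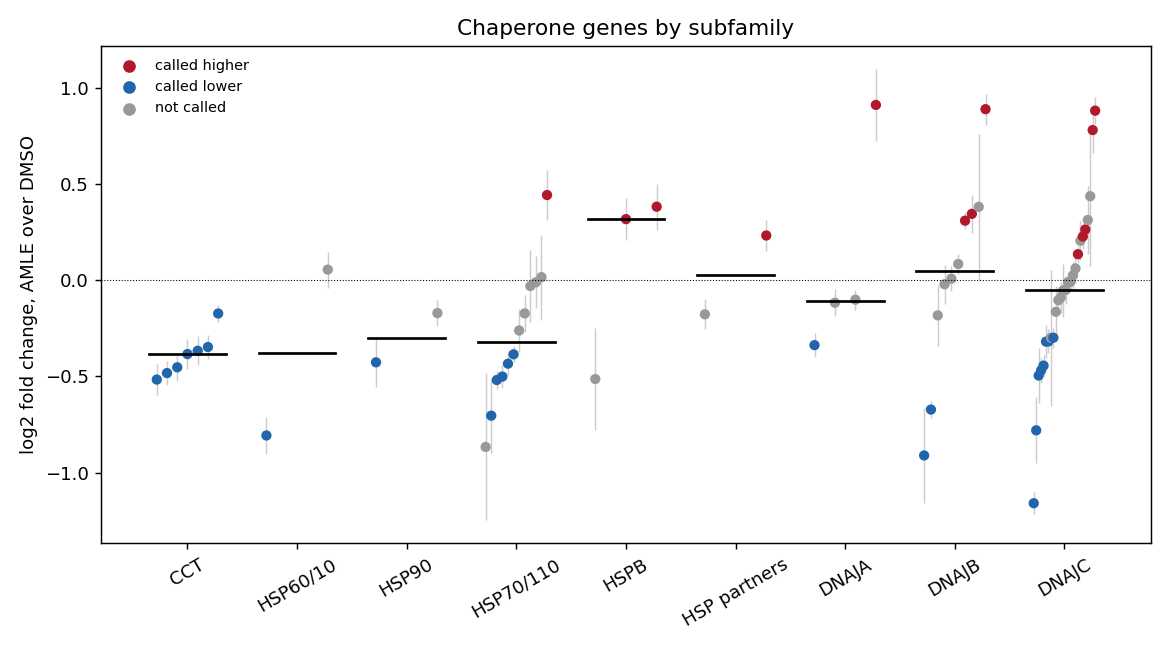
Log2 fold change (AMLE over DMSO) of each of the 68 chaperone genes by subfamily, with SE as grey bars, subfamily medians as black lines and colours for the edgeR call at an adjusted p below 0.05. All 7 CCT genes lie below 0, while the J-domain groups spread to both sides.

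Of the cytosolic chaperonin genes, those with a Cct symbol in the rule fell, and Tcp1, described below, was not called. All 7 CCT subunit genes in the rule were lower in AMLE, with a median log2 fold change of −0.38, and in none of them did the groups overlap. Of all tested genes 25.6% were called lower, and 31.4% were lower without overlap. Cct6a had 146, 143 and 122 CPM in AMLE and 202, 203 and 183 in DMSO. Its level was 1.43-fold lower (−0.52 ± 0.08, SE; adjusted p = 0.0018), the largest fall of the 7. Cct8 stood at 192, 194 and 175 CPM in AMLE, against 272, 267 and 245 in DMSO (−0.48 ± 0.06; adjusted p = 0.00096). Cct5 followed with 244, 243 and 208 CPM against 324, 321 and 307 (−0.45 ± 0.07). Cct3, Cct7 and Cct2 fell by 0.38, 0.37 and 0.35 on the log2 scale. In all 7 genes AMLE 3 was the lowest AMLE library and DMSO 3 the lowest DMSO library.

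Cct4 fell least of the Cct genes in the rule. It had 180.2, 184 and 176 CPM in AMLE and 204, 203 and 202 in DMSO (−0.17 ± 0.04; adjusted p = 0.012), and the call was lost without AMLE 1 (adjusted p = 0.0591). The reads of Cct4 for each read of Cct5 were 0.737, 0.755 and 0.845 in AMLE libraries, against 0.629, 0.633 and 0.658 in DMSO libraries. These within-library ratios do not depend on library scaling and did not overlap. The remaining subunit of the ring, CCT1, is encoded by Tcp1, which the symbol rule leaves out. Tcp1 had 259, 279.7 and 229 CPM in AMLE and 256, 254 and 252 in DMSO (0.01 ± 0.07; adjusted p = 0.92). Its AMLE libraries lay on both sides of the DMSO ones. The annotated span of Tcp1 overlaps those of Mrpl18 and Acat3 by 1459 and 1238 bases and holds Snora20, and the strand setting of the counting is unknown, which leaves its value uncertain. Shorter overlaps touch Cct6a (88 bases, with Psph), Cct7 (483, with Pradc1) and Cct8 (191, with Usp16).

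**Figure D2:**
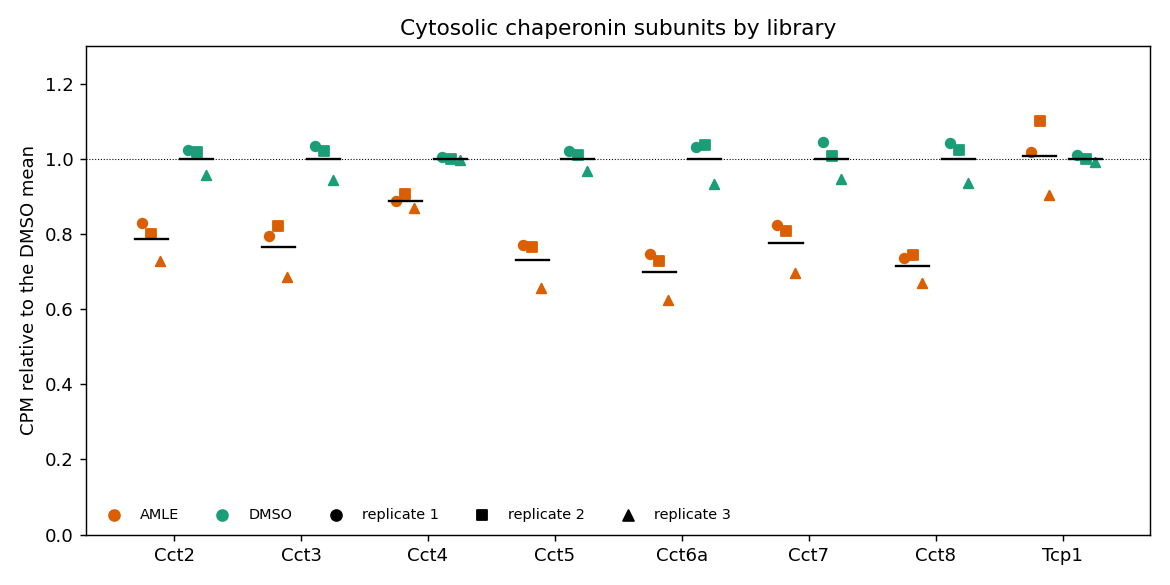
CPM of the 7 CCT genes and Tcp1 in each library, divided by the gene's DMSO mean (AMLE left, DMSO right of each gene; symbols give the replicate number and black lines the group means). The 7 CCT genes have every AMLE library below every DMSO library, and the Tcp1 libraries overlap.

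Prefoldin, a jellyfish-shaped complex that hands newly made actin and tubulin to CCT, and related helpers were listed together with Tcp1. Of those 13 genes, 3 were lower (Pfdn2 at −0.29, Pfdn4 at −0.36 and Pfdn6 at −0.27 log2) and 1, Pfdn5, was higher (0.25 ± 0.05). Leaving out DMSO 2 ended the Pfdn4 and Pfdn6 calls (adjusted p = 0.105 and 0.0599). So did leaving out AMLE 2 for Pfdn6 (0.0585) and DMSO 3, AMLE 1 or AMLE 3 for Pfdn4 (0.0611 to 0.0697). The share of lower genes there (23.1%) was near that of all tested genes.

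The genes of the mitochondrial chaperonin parted. Hspd1, the HSP60 ring subunit, had 166, 165 and 141 CPM in AMLE and 296, 287 and 243 in DMSO. It fell 1.75-fold (−0.81 ± 0.10; adjusted p = 0.00062), and its adjusted p stayed between 0.000451 and 0.00436 when any 1 library was left out. Hspe1, its lid, had 101, 108 and 83.6 CPM in AMLE and 92.6, 98.6 and 90.7 in DMSO (0.06 ± 0.09; adjusted p = 0.65). Without AMLE 3 Hspe1 was called higher (0.17; adjusted p = 0.0482). The counts of Hspe1 per Hspd1 read were 0.607, 0.655 and 0.593 in AMLE libraries, against 0.313, 0.343 and 0.373 in DMSO libraries. This ratio was 0.85 higher on the log2 scale in AMLE, with no overlap (exact permutation p = 0.1, two-sided, the smallest that 3 against 3 libraries allow). Because an alternative Hspd1 start lies beyond the Hspe1 start, the annotated spans share 96 bases.

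Chromatin at the shared stretch was open in all 4 ATAC libraries. The authors' peak there ranked above 88.2% and 93.8% of peaks by −log10 q in the AMLE lists and above 95.4% and 93.4% in the DMSO lists. Its summit lay 66 and 50 bases from the Hspe1 start in AMLE libraries and 22 and 38 bases in DMSO libraries. Ranks from lists of different lengths show no change.

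Other mitochondrial members fell as well. Hspa9 (mortalin), the HSP70 of the matrix, had 208, 194 and 186 CPM in AMLE and 284, 283 and 264 in DMSO (−0.50 ± 0.06; adjusted p = 0.0006). Dnaja3, its J-domain partner, stood at 36.8, 32.3 and 33.7 CPM against 43.4, 42 and 44.5 (−0.34 ± 0.06). Dnajc19 and Dnajc15 belong to the motor that pulls proteins through the inner membrane. They fell by 0.47 and 0.50 on the log2 scale, Dnajc15 with a call that ended when DMSO 2, DMSO 3 or AMLE 1 was dropped (adjusted p 0.0539 to 0.0766). The span of Dnajc19 overlaps that of Fxr1 by 12701 bases. Dnajc11, of the cristae-organising machinery, was at −0.30 ± 0.05. Of 8 members placed here, from general knowledge, in mitochondria, 6 were called lower by edgeR (75%, against 25.6% of all tested genes) and none higher (against 23%). The exceptions among these were Hspe1 and Dnajc30, which had 13.5, 13.3 and 14.4 CPM in AMLE and 13.1, 13.7 and 13.6 in DMSO. The placement may be incomplete. Dnajc4 and Dnajc28, given no place, were not called (−0.10 and −0.16, adjusted p = 0.20 and 0.34).

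Outside the rule, the list of mitochondrial protein quality genes had 3 lower (27.3%, near the 25.6% of all tested genes) and 1 higher of 11. The disaggregase Clpb was at −0.52 ± 0.05, with 17.3, 17.3 and 17.4 CPM in AMLE and 25.5, 24.5 and 24.4 in DMSO. Trap1, the mitochondrial HSP90, which stands in the list of HSP90 co-chaperones, was at −0.21 ± 0.07 (adjusted p = 0.035). That call was lost with RLE scaling (0.0511), without both libraries numbered 3 (0.0885) and in every fit that left out 1 library except that without AMLE 2 (0.0527 to 0.0854).

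Of 12 tested HSP70 and HSP110 genes 5 were lower (41.7%, against 25.6% of all tested genes) and 1 higher (8.33%, against 23%), with a median of −0.32. The lower ones included Hspa8, Hspa4, Hspa9 and Hspa14, and the heat-inducible Hspa1a and Hspa1b had few reads in both groups. Hspa8 (HSC70), which serves general folding and clathrin uncoating, had 1615, 1731 and 1582 CPM in AMLE and 2234, 2229 and 2194 in DMSO. It fell 1.35-fold (−0.43 ± 0.06; adjusted p = 0.0011). Hspa4, an HSP110 that resets HSP70, had 187, 188 and 176 CPM in AMLE and 264, 261 and 265 in DMSO (−0.52 ± 0.05; adjusted p = 0.00019). Hspa14 acts at the ribosome with Dnajc2 on nascent chains. Hspa14 was at 58.8, 59.8 and 59.5 CPM in AMLE, against 76.6, 78.2 and 77.8 in DMSO (−0.38 ± 0.04), and Dnajc2 at 59.5, 59.7 and 52.2 CPM against 72.5, 71.2 and 69.9 (−0.32 ± 0.06). Both partners were thus lower in every AMLE library than in any DMSO library.

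Hspa1a had 1.48, 1.23 and 1.18 CPM in AMLE and 1.43, 0.983 and 1.41 in DMSO, and Hspa1b 2.14, 1.78 and 2.29 CPM against 2.03, 2.46 and 1.83. Neither was called (adjusted p = 0.96 and 0.90), and reads of these near-identical genes could be split between them. Hsph1, the stress-inducible HSP110, had 70, 83.2 and 56.5 CPM in AMLE and 73.9, 72.8 and 64.8 in DMSO (−0.01 ± 0.14; adjusted p = 0.95). Its AMLE libraries spread from below to above all DMSO libraries. Relative to Hspa4, Hsph1 had 0.375, 0.442 and 0.320 reads per read in AMLE libraries and 0.280, 0.279 and 0.245 in DMSO libraries. Hspa1l fell (−0.70 ± 0.19) and Hspa2 rose (0.44 ± 0.13) at under 5 CPM in every library. The Hspa1l call ended when either DMSO 1, DMSO 3, AMLE 1 or AMLE 2 was dropped (adjusted p 0.0589 to 0.0718). The Hspa2 call ended when any 1 library other than AMLE 1 was dropped (0.0566 to 0.0868).

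For the remaining 3 members of the HSP70 group no call was made. Hspa4l was at −0.17 ± 0.10 (adjusted p = 0.18) but was called lower without AMLE 3 (0.00889). Hspa13, which lies in the endoplasmic reticulum, was at −0.26 ± 0.11 (adjusted p = 0.092). It was called lower in the fit with a replicate block (0.0217), without DMSO 2 (0.0259) and without AMLE 3 (0.0372). Hspa12a was below 1 CPM in all libraries.

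Both cytosolic HSP90 genes were lower in every AMLE library than in any DMSO library, and the inducible form differed more. Hsp90aa1, the inducible form, had 254, 274 and 201 CPM in AMLE and 356, 334 and 290.5 in DMSO (−0.43 ± 0.13; adjusted p = 0.029). The call ended on dropping DMSO 1 (0.0893), DMSO 2 (0.078) or AMLE 1 (0.0706). Hsp90ab1, the constitutive form, had 1807, 1912 and 1678 CPM in AMLE and 2072, 2059 and 1942 in DMSO (−0.17 ± 0.07; adjusted p = 0.077). It was called lower without AMLE 2 (0.0491). Reads of Hsp90aa1 per read of Hsp90ab1 were 0.140, 0.143 and 0.120 in AMLE libraries, against 0.172, 0.162 and 0.1496 in DMSO libraries, a log2 difference of −0.26.

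**Figure D3:**
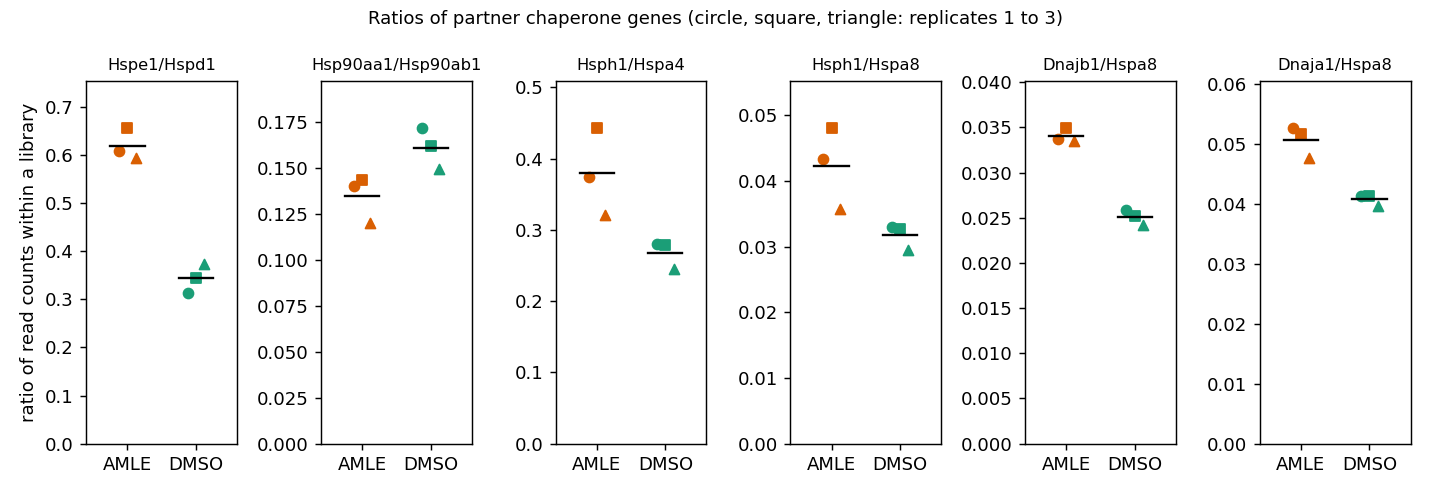
Read count of 1 chaperone gene divided by that of a partner within each library, for 6 pairs (AMLE left, DMSO right; circles, squares and triangles are replicates 1, 2 and 3 and lines are means). Hspe1 per Hspd1 read is 0.593 to 0.655 in AMLE and 0.313 to 0.373 in DMSO, and no pair shown has overlapping groups.

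In all, 9 such pairs were compared, chosen after the levels were seen. None overlapped between the groups, and each had an exact permutation p of 0.1, the smallest that 3 against 3 libraries allow. The pairs were picked on those levels and Hspa8 recurs among them, so the lack of overlap is a description and no separate test. How often other gene pairs overlap was not counted. Dnajb1, the main stress-inducible J-domain protein, gave 0.0337, 0.0349 and 0.0334 reads per Hspa8 read in AMLE libraries, against 0.0258, 0.0252 and 0.0242 in DMSO libraries. Dnajb1 itself was 54.5, 60.4 and 52.9 CPM in AMLE and 57.8, 56.2 and 53 in DMSO (0.01 ± 0.07), with overlapping groups.

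In the list of HSP90 co-chaperones 14 of 26 genes were lower in AMLE (53.8%, against 25.6% of all tested genes) and 2 higher (7.69%, against 23%). Fkbp4 (FKBP52), an immunophilin that assists steroid receptors, had 66.1, 64.4 and 54 CPM in AMLE and 136, 131 and 113 in DMSO (−1.04 ± 0.10; adjusted p = 0.00026). Fkbp5 (FKBP51), its counterpart, had 63.2, 59.5 and 56.7 CPM against 100.5, 95.1 and 99.6 (−0.72 ± 0.05). The cyclophilin gene Ppid was at −0.57, Ptges3 (p23) at −0.42 and Nudc at −0.49. Ruvbl1 and Ruvbl2, paired ATPases that work with HSP90 in assembling large complexes, were at −0.54 and −0.51. Tsc1, which slows the HSP90 cycle, rose (0.42 ± 0.07). Stip1 (HOP), the bridge between HSP70 and HSP90, had 153, 160.2 and 128 CPM in AMLE and 173, 177 and 160.0 in DMSO (−0.21 ± 0.09; adjusted p = 0.086). It was called lower with a replicate block (0.0085) and without both libraries numbered 3 (0.0451).

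Exchange factors and other HSP70 partners had 4 lower genes of 12 by edgeR (33.3%, against 25.6% of all tested genes) and none higher (against 23%). Bag3, a typical HSF1 target, was at 33.2, 34.4 and 36.5 CPM in AMLE and 31.8, 30.4 and 38.2 in DMSO. Over the whole list of 68 co-chaperones and regulators, 24 were lower (35.3%) and 6 higher (8.82%), with a median of −0.13. Hsf1 had 41.2, 41.9 and 39.5 CPM in AMLE and 42.4, 46.9 and 42.5 in DMSO (−0.10 ± 0.06; adjusted p = 0.19), not overlapping but not called. Hsf2, a related factor, rose: it had 66.3, 82.8 and 61.7 CPM in AMLE and 32, 33.8 and 35.4 in DMSO (1.06 ± 0.11; adjusted p = 0.00042). Atf5, a factor of the mitochondrial unfolded protein response, had 142, 154 and 77.2 CPM in AMLE, against 47.3, 54.9 and 36.4 in DMSO (1.43 ± 0.27; adjusted p = 0.0051). AMLE 3 had the lowest Atf5 level of its group, still above all DMSO libraries, and the span of Atf5 overlaps that of Nup62 by 571 bases.

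**Figure D4:**
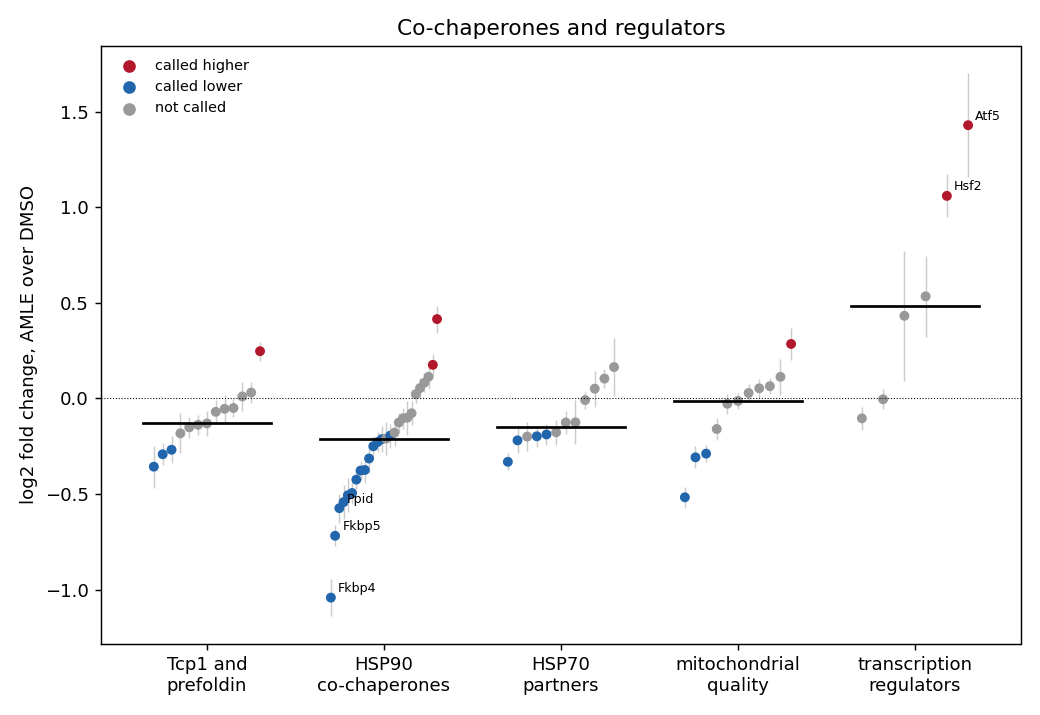
Log2 fold change (AMLE over DMSO) of 68 co-chaperones and regulators in 5 groups, with SE as grey bars, group medians as black lines and colours for the edgeR call at an adjusted p below 0.05. Fkbp4 and Fkbp5 lie lowest at −1.04 and −0.72, and Hsf2 and Atf5 highest at 1.06 and 1.43.

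J-domain genes moved in both directions. Of 40, 11 were lower (27.5%) and 9 higher (22.5%), shares near those of all tested genes, and their median was −0.04. Their summed level was 2120 to 2173 CPM in AMLE and 2123 to 2147 in DMSO, whereas the summed CCT level was 1173 to 1333 CPM in AMLE against 1600 to 1723 in DMSO.

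Dnajc9, a nuclear J-domain protein that chaperones histones, fell 2.23-fold. It had 17.6, 17.7 and 18.2 CPM in AMLE and 41, 37.7 and 40.8 in DMSO (−1.16 ± 0.06; adjusted p = 3.2e-05). The groups lay far apart and were tight. At its start a peak was present in both AMLE libraries and in DMSO 2 but not in DMSO 1, always low in the list (above 36.6% and 30.7% of peaks in AMLE and 35.3% in DMSO 2). The 22 proliferation genes were lower in AMLE too, and their part in the Dnajc9 result was not tested.

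**Figure D5:**
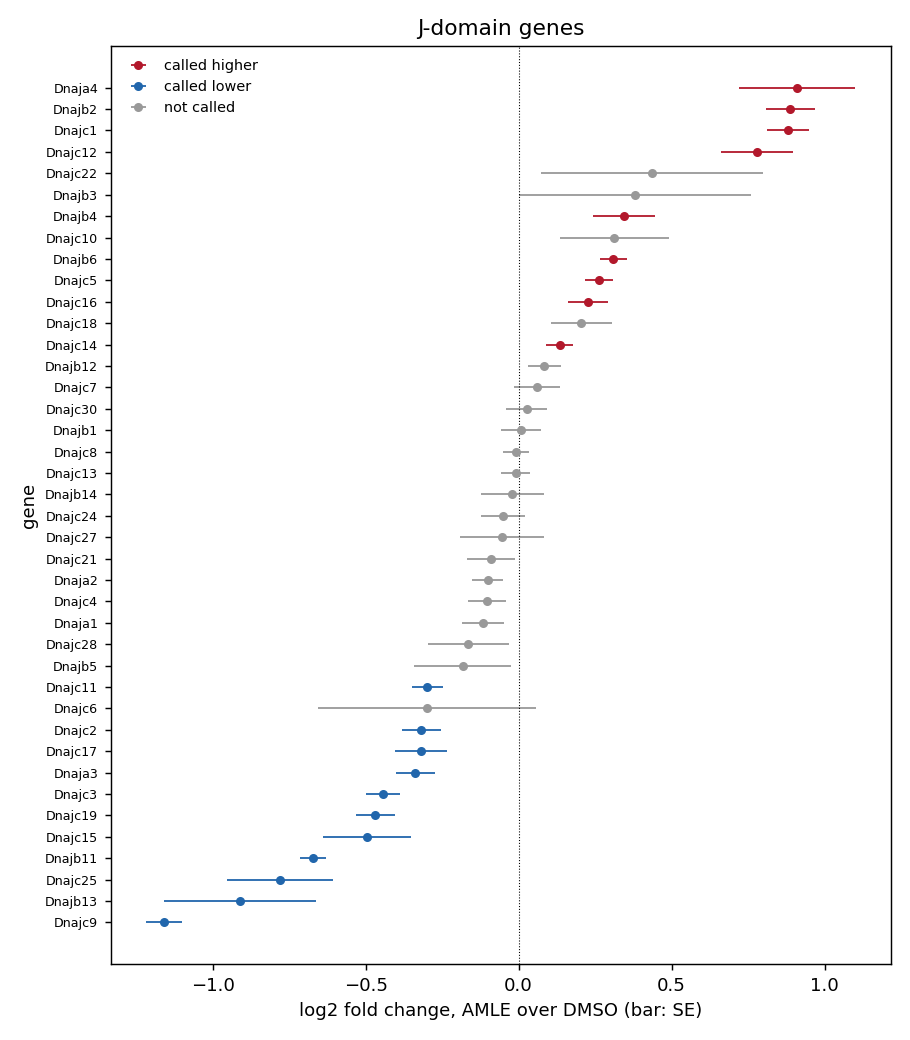
Log2 fold change (AMLE over DMSO) with SE of the 40 J-domain genes, ordered by value and coloured by the edgeR call at an adjusted p below 0.05. Dnajc9 lies lowest at −1.16, and Dnaja4, Dnajb2 and Dnajc1 lie highest at 0.91, 0.89 and 0.88.

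Dnajb2, a J-domain protein with ubiquitin-interacting motifs that passes clients to the proteasome, rose 1.85-fold, with 35.7, 39.9 and 41.8 CPM in AMLE and 19.6, 22.1 and 21.8 in DMSO (0.89 ± 0.08; adjusted p = 0.00021). Dnajc1, a J-domain protein of the endoplasmic reticulum membrane, rose 1.84-fold, with 119, 134 and 119 CPM against 67, 71.5 and 63.4 (0.88 ± 0.07; adjusted p = 0.00012). Its annotated span overlaps that of Mllt10. Dnaja4 rose 1.88-fold at low level, with 3.77, 4.52 and 3.02 CPM in AMLE and 2, 1.83 and 2.2 in DMSO (0.91 ± 0.19). Dnajc12, a helper of aromatic amino acid hydroxylases, rose to 19.2, 22.2 and 22.4 CPM in AMLE, against 10.4, 13.3 and 13.5 in DMSO (0.78 ± 0.12). In each of these 4 genes every AMLE library was above every DMSO library.

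Smaller rises were seen in abundant members. Dnajb6, which holds back protein aggregation, had 118, 125 and 119.7 CPM in AMLE and 96, 99.8 and 96.8 in DMSO (0.31 ± 0.04; adjusted p = 0.0013). Dnajc5 (cysteine string protein), which acts on secretory vesicles, had 242, 245 and 246 CPM in AMLE and 205, 209 and 196 in DMSO (0.26 ± 0.05). Dnajb4, Dnajc14 and Dnajc16 were at 0.34, 0.14 and 0.23, with calls that leaving out single libraries ended. Dnajb4 and Dnajc16 were each lost on dropping DMSO 1, DMSO 2 or AMLE 1 (adjusted p 0.0588 to 0.092). Dnajc14 was lost on dropping any library except AMLE 3 (0.0543 to 0.143), with DESeq2 (0.052), with no low-count filter (0.0826) and without both libraries numbered 3 (0.0504).

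Among the lower genes, Dnajc25 had 6.29, 4.52 and 7.41 CPM in AMLE and 10.9, 9.87 and 10.4 in DMSO (−0.78 ± 0.17). Dnajb13 was at −0.91 ± 0.25 with under 6 CPM throughout, a call that ended when any 1 of DMSO 2, DMSO 3, AMLE 1 and AMLE 2 was dropped (0.0513 to 0.0616). Dnajc17 (−0.32), of the splicing machinery, lost its call when DMSO 1 or either of AMLE 1 and AMLE 2 was dropped (0.0554 to 0.0652). The general HSP70 partners Dnaja1 and Dnaja2 were at −0.12 ± 0.07 and −0.10 ± 0.05 and were not called (adjusted p = 0.20 and 0.14). Dnajc7, which binds both HSP70 and HSP90, was at 0.06 ± 0.08 (called higher without AMLE 3, adjusted p = 0.0466). Its span overlaps that of Cnp.

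The rule takes in 10 members placed here, from general knowledge, in the endoplasmic reticulum, so its genes are not all cytosolic or mitochondrial. That placement may be incomplete, and Dnajc25, which was called lower, was given no place. Of the 10 placed members 3 were higher (30%, against 23% of all tested genes) and 2 lower (20%, against 25.6%). The higher ones were Dnajc1, Dnajc14 and Dnajc16, and single libraries ended the calls of Dnajc14 and Dnajc16. Dnajb11 (ERdj3), a partner of BiP, had 97.3, 93.8 and 95.7 CPM in AMLE and 155, 149 and 153 in DMSO (−0.67 ± 0.04; adjusted p = 6.9e-05). Dnajc3 (P58IPK) had 88, 86.6 and 87.6 CPM against 117, 112 and 127 (−0.44 ± 0.06). Dnajc10 (ERdj5), a reductase, had 104, 148 and 142 CPM in AMLE and 84.6, 107 and 125 in DMSO (0.31 ± 0.18; adjusted p = 0.19; 0.00289 with a replicate block). The left-out genes Hspa5 (BiP) and Hsp90b1 were at −0.73 and −0.75, and Dnajb9 at 0.02. Leaving the 10 placed members out, 23 of 58 were lower (39.7%, against 25.6% of all tested genes) and 10 higher (17.2%, against 23%).

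Small heat shock protein genes were sparsely read. Hspb6 had 7.69, 9.28 and 7.87 CPM in AMLE and 6.55, 6.99 and 6.44 in DMSO (0.32 ± 0.11; adjusted p = 0.045), and Hspb11, whose product belongs to ciliary transport, 7.11, 7.76 and 6.15 CPM against 5.24, 5.2 and 5.72 (0.38 ± 0.12; adjusted p = 0.034). Hspb6 was lost in each fit without 1 library except that without AMLE 3, with DESeq2 (0.0627) and with no low-count filter (0.0646). Hspb11 was lost in the same 5 fits without 1 library (0.0502 to 0.108). Hspb9 stayed under 1 CPM. Hspbap1 rose (0.23 ± 0.08; adjusted p = 0.048) and lost its call with DESeq2 (0.0659), limma-voom (0.0502), no low-count filter (0.0609) and without any 1 library except AMLE 3. Hspbp1, an HSP70 exchange factor, was at −0.18 ± 0.08 (adjusted p = 0.0996), and a replicate block gave 0.036.

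Promoters of chaperone genes were mostly open in both groups. Of the 55 members with a known start, 44 (80.0%) had a peak within 1000 bases in all 4 ATAC libraries, where 67.8% of 9978 tested genes did. Per library the count was 46 and 47 in AMLE and 46 and 48 in DMSO. All 6 CCT genes, both mitochondrial chaperonin genes and all 9 HSP70 or HSP110 genes with a start had a peak in each library. The genes with no peak in any library were Dnajb3, Dnajb12, Dnajb13, Dnajb14 and Dnajc6. Dnajc24 had a peak in both DMSO libraries and in neither AMLE library, with RNA at −0.05 ± 0.07, and no member showed the opposite pattern. Of the 9978 tested genes with a start, 135 showed the Dnajc24 pattern and 24 the opposite one. With 2 libraries a group these are descriptions, and no test was made.

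The 3-unit heat shock element (GAA, NN, TTC, NN and GAA in a row, N being any base, on either strand) was in 6 of 74 windows of the members (8.11%), against 0.603% of all 32851 windows and 0.536% of the 12676 windows of tested genes. The 6 windows are not independent, since Hspd1 and Hspe1 share their element and Dnajb6 and Hsph1 each count with 2 windows. Cct4, Hsp90aa1, Hsp90ab1, Hspa8 and Hspa9 are among the 13 members without a window and were not searched. The 4 genes with the 3-unit element did not move alike, with Hspd1 at −0.81, Hsph1 at −0.01, Hspe1 at 0.06 and Dnajb6 at 0.31. The 2-unit forms, which overlap it, were in 17.6% (GAANNTTC) and 13.5% (TTCNNGAA) of members' windows, against 7.86% and 8.52% of all windows and 5.94% and 7.2% of tested genes' windows. CCAAT was in 37.8% of members' windows, against 37.4% of all windows and the same share of tested genes' windows. CACGTG was in 9.46% of members' windows, against 7.15% of all windows and 9.73% of tested genes' windows. The E2F letters, searched for after the Dnajc9 values were seen, were in 2 member windows, those of Dnajc9 and Dnajc19 (TTTCCCGC), and in that of Cct3 (TTTGGCGC). TTTCCCGC was thus in 2.7% of members' windows, against 1.07% of all windows and 1.9% of tested genes' windows. TTTGGCGC was in 1.35%, against 0.514% of all windows and 0.923% of tested genes' windows. A match of letters is not a bound site.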

How the data were processed

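Groups and replicate numbers came from sample titles. The authors deposited raw read counts per gene symbol from stranded mRNA libraries, per the labels' protocols, and a peak list for each ATAC library, where every summit carries a −log10 q and a ratio over background (fold), plus a consensus list per group. The submitters' processing notes name STAR 2.7.11b, Bowtie2 2.4.4, MACS3 3.0.0a7 and mm10 (the build of GRCm38.p6) without roles. How reads were counted, and with which strand setting, is not given in the sources used here. Summits numbered 17821 and 17447 in AMLE and 20203 and 21703 in DMSO libraries. The q value and fold are the authors' own and only ranked or filtered peaks within a list.

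All genes were tested with edgeR 4.0.16 in R 4.3.3 (TMM factors, filterByExpr with minimum count 10, robust quasi-likelihood F test, two-sided), with Benjamini-Hochberg adjustment over 13075 genes. Fold changes are AMLE over DMSO. SE is the size of the log2 fold change divided by the root of F, an approximation. Levels are CPM on effective totals, not corrected for gene length, so they are not compared between genes. Exact permutation tests ran over the 20 splits of 6 libraries. In simulated counts for this comparison (12963 genes) the test found 61.2% of genes set to change 1.5-fold, 86.6% at 2-fold and 93.9% at 4-fold. Of 177 calls there 16 were false. Only 67, 67 and 66 genes were set to change at these sizes, whereas 48.6% of tested genes were called in the real libraries. Adjusted p-values depend on the share of changed genes, so these rates are not detection rates for the chaperone members. Deviations from the group mean correlated between libraries with the same number in all 3 pairs (r = 0.292, 0.28 and 0.431). Between numbers 1 and 2 r was 0.105 and 0.11, and between number 3 and the others −0.31 to −0.266. Deviations cancel within a group, so these values are not independent and the negative ones are partly forced. Pairing by number may exist, from the data and not the labels, but was not told apart from a likeness of the libraries numbered 3 alone. The main test did not use pairing, and a replicate block was an alternative. Others were RLE factors, DESeq2 1.42.0, limma-voom (limma 3.58.1), no filter, an adjusted p of 0.01, and leaving out libraries.

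Members and lists were chosen with earlier results of these data known. Named were all HSP90, CCT, HSP60, HSP10, HSP70 and small HSP genes, the 6 called J-domain members per class with the largest change (mean CPM of at least 2) with the 2 highest in CPM, fixed regulators and called co-chaperones at or beyond 0.4 on the log2 scale, and members whose call an alternative ended. Dnajb1, Dnajc2, Dnajc3, Dnajc4, Dnajc11, Dnajc24, Dnajc28, Dnajc30, Pfdn2, Pfdn4, Pfdn5, Pfdn6, Hspa5, Hsp90b1 and Dnajb9 were named after their values were seen. No per-sample column was left unused.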

Additional observations from a re-analysis of the deposited data

How the results depend on the processing

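Among the members and listed genes that were refitted, none changed sign with a call under any alternative. Of the 25 lower members 19 kept their call in every fit at 0.05, among them all CCT genes except Cct4, and of the 13 higher members 6 did (Dnaja4, Dnajb2, Dnajb6, Dnajc1, Dnajc12 and Dnajc5). The count of chaperone members called higher ranged from 6 to 14 when 1 library was left out and was 6 at an adjusted p of 0.01, where 15 co-chaperones and regulators were lower and 1817 of all genes higher. The median log2 fold change of tested chaperone members ranged from −0.16 to −0.10 when 1 library was left out and was −0.11 without both libraries numbered 3. With the replicate block 14 members were higher and 27 lower, and apart from the calls given with a block value in the report and those of Txndc9, Bag5, Grpel2, Clpp and Hsf4 it changed no call among the named genes. The count of 44 promoters with a peak in all libraries was the same with windows of 500 or 2000 bases, with −log10 q of at least 5 and with summits only. At these depths, members under 1 CPM gave SEs of 0.26 to 0.38, so moderate changes were not detectable there.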
